A study of Mus musculus with 18 samples.

Results

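Neuropeptides and interneuron calcium-binding proteins were followed here as 10 named genes of 34921 in the deposited copy of the table. They are the precursors of somatostatin (Sst), vasoactive intestinal polypeptide (Vip), neuropeptide Y (Npy), cholecystokinin (Cck), substance P (Tac1), enkephalin (Penk), corticotropin releasing hormone (Crh) and neurotensin (Nts), with calretinin (Calb2) and parvalbumin (Pvalb). All 10 were found by name and all 10 passed the filter on low values. Total RNA came from micro-punched brain tissue of C57BL/6 male mice aged 9 weeks. In photothrombosis the dye rose bengal, here 100 mg/kg, is activated by a laser spot through the skull and clots the vessels under it. The light was given for 15 min at 532 nm and 40 mW through a 2 mm fiber placed 2 mm right of bregma. The 18 libraries form 6 groups of 3, namely contralateral left (libraries 1, 3 and 5), sham right (1, 2 and 3), and the right lesion at 4 h (2, 3 and 6), 1 day (1, 3 and 4), 3 days (1, 2 and 8) and 10 days (1, 2 and 5). The protocol takes the left punches from mice with a lesion, at a time that is not given, while their disease state reads sham, and it does not say whether a left punch shares its mouse with another library. The titles of left 1 and 3 (ctr.1L and ctr.3L) share their prefix and number with sham right 1 and 3 (ctr.1R and ctr.3R). The 2 groups were compared without pairing. Each group of the right side comes from 3 animals, and sham right was the control of every time.

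In the forebrain, Sst, Pvalb and Vip mark largely separate classes of inhibitory interneuron, and Npy, Cck, Crh and Calb2 are found in overlapping sets of them. Peptide precursors are cut by proteases in dense-core granules and act on G protein-coupled receptors after release. Penk and Tac1 are also the peptides of the projection neurons of the striatum, Penk in the indirect and Tac1 in the direct pathway. Calretinin and parvalbumin bind calcium in the cytosol, and Calb2 and Nts are made as well by neurons of the thalamus, hypothalamus and other deep regions.

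The unit throughout is FPKM, a fragment count divided by transcript length and library total, so levels can be set side by side between genes. Neuronal RNA was present in every library, with Snap25, a synaptic vesicle fusion protein, between 349 and 576 FPKM, Slc17a7, the vesicular glutamate transporter of cortex, between 67.5 and 121 FPKM, and Gad1, a GABA-synthesising enzyme, between 21.2 and 39.7 FPKM. The summed FPKM of 14 microglia and macrophage markers lay between 1662 and 1914 at 10 days, against 194 to 257 in sham right. Against sham right at the 4 times, 0 of 18 cortical excitatory markers and 0 of 8 choroid plexus markers were called, though the F-test called the cortical genes Cux2 and Neurod2, and of 15 pan-neuronal markers 1 was lower at 10 days, the growth cone protein Gap43. At 10 days 13 of the 15 pan-neuronal markers lay below 0 (median log2 fold change -0.31), as did 14 of the 18 cortical markers (median -0.16). Of all genes tested 60.2% lay below 0 at that time. Of 12 astrocyte markers 1 was lower at 4 h (Aqp4, a water channel) and 1, 2 and 1 were higher at the later times, Gfap, an intermediate filament protein, among them at each. Of 13 oligodendrocyte markers 1 was lower at 4 h, 1 lower at 1 day and 1 higher at 3 days. Of 11 endothelial and pericyte markers 3 were lower at 4 h, 1 was lower at 1 day and 1 was higher at 3 days. The library that stood farthest apart was 10 day library 5, with 44.6% of its summed FPKM in mitochondrially encoded RNA (24.4% to 39.0% in the other 17) and the lowest mean correlation across genes with its group, 0.933. It held the lowest of 18 values for Sst, Cck, Calb2 and Pvalb and the highest for Npy and Tac1. Snap25 was also highest there (576 FPKM) and Slc17a7 lowest (67.5 FPKM). The neuronal marker Rbfox3 had 14.5 FPKM there, against 25.6 and 27.5 FPKM in 10 day libraries 1 and 2. The inhibitory neuron gene Slc32a1 had 9.40 FPKM, against 19.2 and 17.4 FPKM, while Gad2 had 27.8 FPKM, against 24.8 and 23.3 FPKM. Contralateral left 5 was next at 0.941 and held the highest Calb2. In bulk tissue, fewer cells of a type and less RNA per cell cannot be told apart.

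The peptides and calcium-binding proteins of the right sham punch spanned a wide range of levels. Sst was the highest of the 10 at 298 ± 61.2 FPKM, followed by Cck at 251 ± 21.9, Pvalb at 116 ± 5.09, Npy at 91.2 ± 15.2, Penk at 37.2 ± 2.52, Vip at 17.1 ± 2.09, Calb2 at 16.8 ± 6.20, Tac1 at 7.97 ± 1.28, Nts at 6.69 ± 1.83 and Crh at 5.02 ± 0.721 FPKM (SD, n = 3). Within that order the sham values of Sst and Cck overlapped, as did those of Vip and Calb2, of Tac1 and Nts and of Nts and Crh, and the other neighbours did not. Over all 18 libraries Sst had more FPKM than 99.4% of the 14016 genes tested, and Crh more than 44.0%.

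Against sham right, 2 falls were called among these transcripts, Nts at 3 days and Calb2 at 10 days, and no gene of the 10 was called higher at any time. The 95% interval of the log2 fold change lay within 1 of 0 for 6 of the 10 at 4 h and at 1 day and for 5 at 3 and at 10 days. The test was limma on log2(FPKM + 1) over all 18 libraries, with Benjamini-Hochberg adjustment over 14016 genes and a call at an adjusted p under 0.05. At 4 h and at 1 day 0 of 10 were called, where 2.18% and 1.18% of all genes tested were, and 3 and 2 of the 10 had an unadjusted p under 0.05, beside 16.5% and 8.58% of all genes. At 3 days 1 of 10 was called, with 7.36% of all genes (0.457% called lower), and at 10 days 1 of 10, with 7.13% (0.92% lower). At those times 3 and 2 of the 10 had an unadjusted p under 0.05, beside 16.3% and 19.4% of all genes. Contralateral left against sham right gave 0 of 10, with 0.0285% of all genes called. None of the 10 had an unadjusted p under 0.05, beside 7.68% of all genes. Without contralateral left 5 and 10 day library 5, 2767 genes were called in that comparison, none of the 10 among them. In the steps from each time to the next 0 of 10 were called, with 1.23%, 5.22% and 2.02% of all genes, and 0, 0 and 2 of the 10 had an unadjusted p under 0.05, beside 1416, 1782 and 2408 of the 14016 genes tested (17.2% in the last step). A test over the 4 times together (limma F-test) called 1 of 10, Nts, and 13.5% of all genes. The median log2 fold change of the 10 was -0.13 at 4 h, -0.16 at 1 day, -0.35 at 3 days and -0.33 at 10 days, beside 0.01, 0.03, 0.08 and -0.07 for all genes tested. The 4 times share the sham right libraries, so these are not independent of each other. The authors' deposited table lists the 10 genes at q-values from 0.142 (Nts) to 0.860 (Sst), for groups that it does not state.

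**Figure D1:**
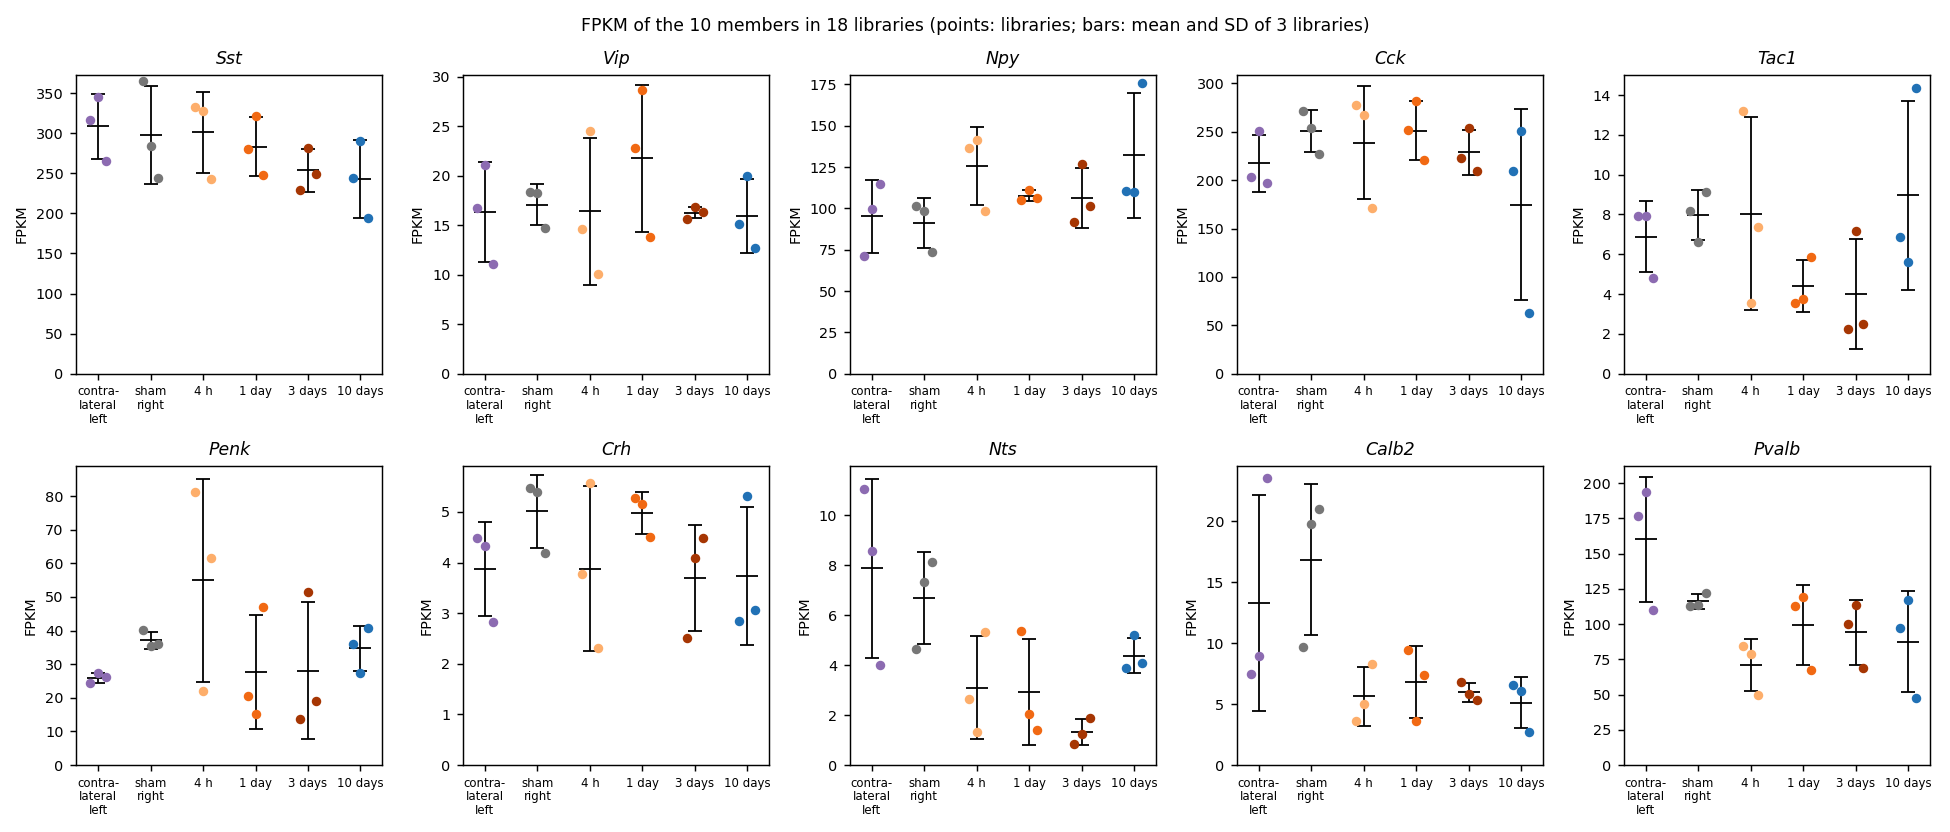
FPKM (vertical axes, from 0) of the 10 genes in the 6 groups, with a point for each library and bars for the mean and SD of 3. Groups next to each other in level overlap for every gene, the lowest Nts values are at 3 days (0.860 to 1.89 FPKM), and Penk is spread from 13.5 to 81.3 FPKM.

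**Figure D2:**
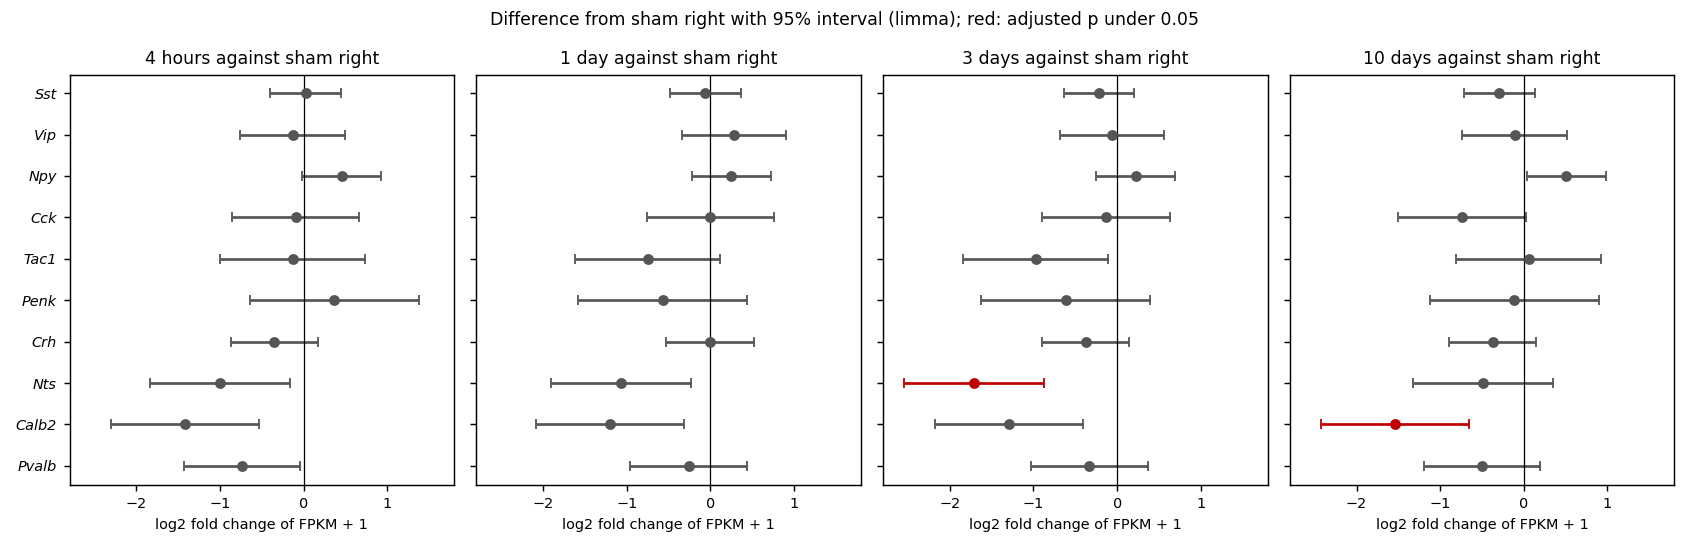
Log2 fold change of each gene at 4 times against sham right (horizontal axes, log2 scale of FPKM + 1), with the 95% interval of limma. The intervals in red belong to Nts at 3 days (-1.71) and Calb2 at 10 days (-1.54), the 2 with an adjusted p under 0.05.

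The windows around the start of 7 of the 10 genes were read from RefSeq promoter sequences of GRCm38.p6, each 250 bases before to 50 bases after the start. They are shown for Sst and Vip, with no call, and for Nts, with the fall at 3 days, since CREB-family and AP-1 factors are known to act on peptide genes. Capitals mark matches on either strand to the cAMP response element TGACGTCA, its core TGACG, which lies within it, and the AP-1 site TGANTCA. The strands and positions are chr16:23890795-23891094 minus for Sst, chr10:5638968-5639267 plus for Vip and chr10:102490369-102490668 minus for Nts, each written 5′ to 3′ along the gene.
Sst: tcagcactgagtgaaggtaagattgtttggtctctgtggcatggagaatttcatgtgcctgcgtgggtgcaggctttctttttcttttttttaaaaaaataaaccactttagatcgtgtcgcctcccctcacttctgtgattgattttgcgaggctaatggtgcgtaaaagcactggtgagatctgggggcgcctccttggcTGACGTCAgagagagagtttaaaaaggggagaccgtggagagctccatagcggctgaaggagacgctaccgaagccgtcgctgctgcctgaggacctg
Vip: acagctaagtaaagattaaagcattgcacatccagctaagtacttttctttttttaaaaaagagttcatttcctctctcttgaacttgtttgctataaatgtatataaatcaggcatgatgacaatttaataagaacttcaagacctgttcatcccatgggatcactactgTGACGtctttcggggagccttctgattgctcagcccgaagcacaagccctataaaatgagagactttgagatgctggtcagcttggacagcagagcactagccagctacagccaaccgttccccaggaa
Nts: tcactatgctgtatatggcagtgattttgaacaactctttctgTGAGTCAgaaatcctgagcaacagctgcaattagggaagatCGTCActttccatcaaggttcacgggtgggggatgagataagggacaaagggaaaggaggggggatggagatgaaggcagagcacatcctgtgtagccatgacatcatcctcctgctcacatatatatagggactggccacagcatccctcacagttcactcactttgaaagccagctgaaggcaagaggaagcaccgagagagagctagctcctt
The Sst window holds the full element 48 bases before the start, which 1.79% of 32851 windows of this length hold. Vip holds the core 79 bases before the start and Nts 166 bases before it. The windows of Cck and Tac1 hold it too, and so do 20.8% of all windows. The AP-1 letters occur in Nts, 207 bases before the start, and in 7.81% of all windows. These are matches of letters. The windows of Npy and Pvalb, which were not called, hold none of the 3 motifs. No window of Penk, Crh or Calb2 was available, so Nts is the only called member whose window was read. The core occurs in Nts and in the uncalled Sst, Vip, Cck and Tac1.

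Nts, the precursor of neurotensin, a peptide that modulates dopamine signalling and lowers body temperature when given into the brain (ENSMUSG00000019890, protein-coding, chromosome 10, 102481756 to 102490486 on the minus strand of GRCm38), was lowest at 3 days. Contralateral left 1, 3 and 5 had 11.0, 8.57 and 4.00 FPKM and sham right 1, 2 and 3 had 4.63, 7.31 and 8.14 FPKM. The lesion held 2.64, 1.31 and 5.34 FPKM at 4 h, 5.37, 2.03 and 1.42 FPKM at 1 day, 0.860, 1.26 and 1.89 FPKM at 3 days and 3.87, 5.19 and 4.10 FPKM at 10 days. All 3 libraries at 3 days lay below all 3 of sham right, as 9.67% of genes tested did, and the other times overlapped it. The Nts promoter is the one above that holds the AP-1 letters. Nts averaged 1.34 ± 0.521 FPKM at 3 days and 6.69 ± 1.83 FPKM in sham right (SD, n = 3 each), which is -1.71 ± 0.39 as a log2 fold change (SE, 95% interval -2.55 to -0.88, limma adjusted p = 0.0107). It was -1.0 at 4 h (adjusted p = 0.220), -1.07 at 1 day (0.354) and -0.49 at 10 days (0.513). The 10 day values all lay above the 3 day values, as for 5.77% of genes tested, with a log2 difference of 1.22 ± 0.39 that was not called (limma adjusted p = 0.151). The call at 3 days ended without sham right 3 (-1.57, adjusted p = 0.0575) and without 3 day library 1 (-1.56, adjusted p = 0.0629), and held in the other 4 such fits. The F-test over the 4 times (adjusted p = 0.0482) was past the threshold in 4 of 15 fits that leave out a library, with adjusted p from 0.0158 to 0.144. It was past it without 4 h libraries 3 or 6 and 1 day libraries 1 or 4, and not without any of the sham right, 3 day or 10 day libraries, 4 h library 2 or 1 day library 3.

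Calb2, calretinin, a calcium-binding protein of Vip-related interneurons and of thalamic neurons (ENSMUSG00000003657, protein-coding, chromosome 8, 110137502 to 110168210, minus strand), was lower than sham right in every stroke library. It stood at 7.47, 8.94 and 23.5 FPKM in contralateral left, 9.70, 19.8 and 21.0 FPKM in sham right, 3.62, 4.97 and 8.29 FPKM at 4 h, 9.46, 3.59 and 7.37 FPKM at 1 day, 6.82, 5.79 and 5.29 FPKM at 3 days and 6.55, 6.09 and 2.73 FPKM at 10 days. The highest stroke value, in 1 day library 1, was just under the lowest sham value, and contralateral left 1 and 3 were under every sham value. Stroke libraries lay wholly below sham for 17.2%, 8.5%, 9.67% and 13.2% of genes tested at the 4 times. Calb2 averaged 5.12 ± 2.08 FPKM at 10 days and 16.8 ± 6.20 FPKM in sham right, which is -1.54 ± 0.42 as a log2 fold change (SE, 95% interval -2.42 to -0.65, limma adjusted p = 0.0317). At 4 h it was -1.42 (adjusted p = 0.0912), at 1 day -1.20 (0.288) and at 3 days -1.29 (0.0829), or -1.62 without sham right 1 (0.0423). The 10 day call ended without sham right 2 (-1.39, adjusted p = 0.140), without sham right 3 (-1.35, 0.143) and without 10 day library 5 (-1.22, 0.183). It was kept in 2 of 8 other settings, a pseudocount of 0.1 and quantile normalization. With contralateral left as the control the value was -1.12 (adjusted p = 0.118), and the adjusted p was 0.0945 with no filter, 0.0552 after rescaling without mitochondrial genes and 0.0811 with only the compared groups fitted.

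Markers of deep-lying neurons were looked at beside Nts and Calb2. The summed FPKM of 10 thalamic and subcortical markers was 54.2 to 67.2 at 4 h, 67.9 to 83.9 at 1 day, 65.3 to 76.0 at 3 days and 62.3 to 83.0 at 10 days, against 86.0 to 106 in sham right. In contralateral left the sum was 70.5 to 89.2. A large part of the sum was Calb1, which interneurons and other projection neurons also make. Calb1 averaged 34.7 ± 8.44 FPKM in sham right and 19.5 ± 2.12 FPKM at 4 h (SD, n = 3). Of 7 members of that list that passed the filter, all 7 lay below 0 at 4 h and 1 day and 6 did at 3 and 10 days, and 2, 0, 1 and 1 were called lower. In contralateral left all 7 lay below 0 and none was called. Slc17a6, the vesicular glutamate transporter of thalamus and other subcortical regions, averaged 5.48 ± 1.15 FPKM at 3 days and 14.6 ± 7.54 FPKM in sham right (log2 fold change -1.18 ± 0.34, limma adjusted p = 0.0439). The highest Slc17a6 values were in sham right 3 (23.2 FPKM) and contralateral left 5 (14.6 FPKM), which also had the highest Calb2 values of their groups. Tcf7l2, a transcription factor of thalamic neurons, was highest in the same libraries, at 2.71 and 2.30 FPKM. Nts was also the highest of its group in sham right 3 (8.14 FPKM), but in contralateral left 5 it was the lowest (4.00 FPKM). The summed FPKM of choroid plexus markers was 542 to 779 at 10 days and 483 to 647 in contralateral left, against 232 to 363 in sham right. Between libraries of a group it ran from 62.1 to 717 at 4 h, 65.5 to 539 at 1 day and 69.2 to 324 at 3 days. The part of these markers in the values of Nts and Calb2 was not tested.

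**Figure D3:**
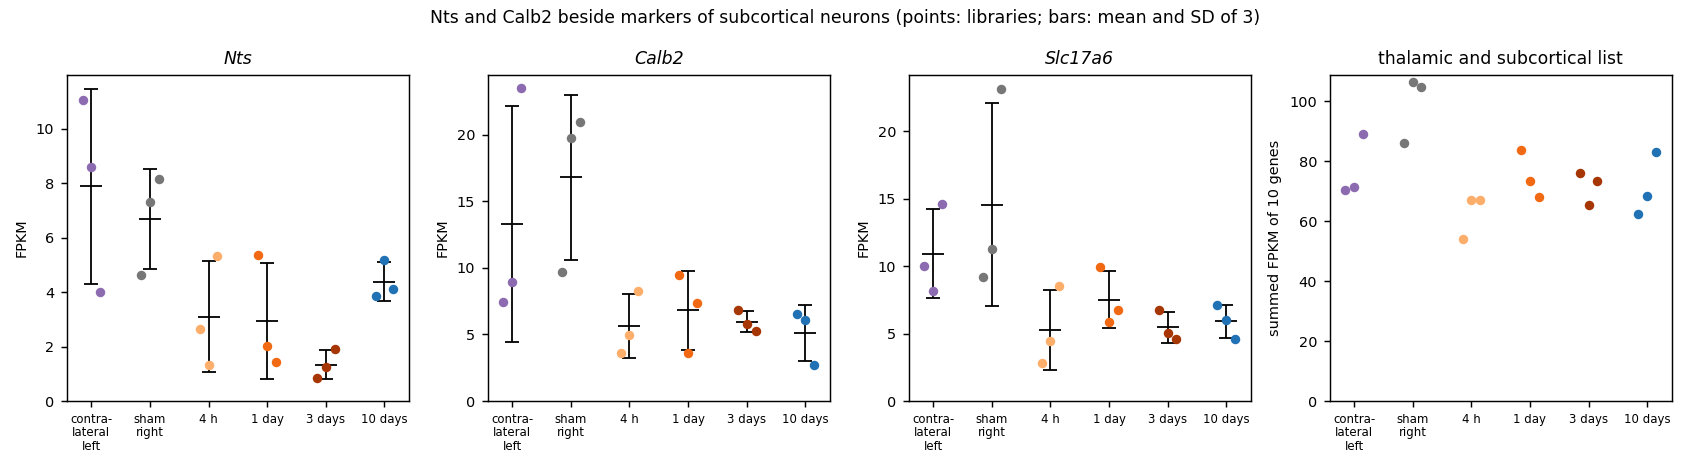
FPKM (vertical axes, from 0) of Nts, Calb2 and Slc17a6 by group, and the summed FPKM of 10 thalamic and subcortical markers, with a point for each library and, for single genes, bars for the mean and SD of 3. All 12 stroke libraries lie below all 3 sham right libraries for Calb2 and for the summed list. That list includes Calb1, which is not particular to deep regions.

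The peptides of cortical interneurons, Sst, Vip, Npy and Crh, gave no call in any comparison. Sst, which inhibits hormone and transmitter release and marks dendrite-targeting interneurons (ENSMUSG00000004366, chromosome 16, 23889573 to 23890958, minus strand), ranged from 194 FPKM in 10 day library 5 to 365 FPKM in sham right 1. Its group means were 309 ± 40.5 in contralateral left, 298 ± 61.2 in sham right, 301 ± 50.3 at 4 h, 283 ± 37.0 at 1 day, 254 ± 26.7 at 3 days and 243 ± 48.3 FPKM at 10 days. Every group overlapped the next in level. Its promoter is the one above with the full cAMP response element. The 95% interval of its log2 fold change ran from -0.40 to 0.44 at 4 h and from -0.71 to 0.13 at 10 days. Without 10 day library 5 the 10 day value was -0.14.

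Vip, a vasodilator and the peptide of interneurons that inhibit other interneurons, ranged from 10.0 FPKM in 4 h library 6 to 28.6 FPKM in 1 day library 3, both above and below the 14.7 to 18.4 FPKM of sham right. Its log2 fold changes lay between -0.13 at 4 h and 0.28 at 1 day (SE 0.29, limma adjusted p from 0.851 to 0.964). Crh, the stress hormone releasing factor and a peptide of some cortical interneurons, ranged from 2.31 FPKM in 4 h library 6 to 5.57 FPKM in 4 h library 3. At 1 day its mean was 4.98 ± 0.411 FPKM, against 5.02 ± 0.721 FPKM in sham right, and the other times were -0.35 to -0.38 on the log2 scale (limma adjusted p from 0.422 to 0.537). The 3 day values of Crh all lay below the 1 day values, as for 4.86% of genes tested (-0.37 ± 0.25, adjusted p = 0.730).

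Npy, an appetite-stimulating and anticonvulsant peptide that is induced by seizures in rodents, was the member with means above sham right at all 4 times. It stood at 71.1, 99.6 and 115 FPKM in contralateral left, 101, 98.4 and 73.7 FPKM in sham right, 137, 141 and 98.3 FPKM at 4 h, 105, 111 and 106 FPKM at 1 day, 91.6, 127 and 101 FPKM at 3 days and 111, 110 and 176 FPKM at 10 days. All libraries at 1 day and at 10 days lay above sham right, as 14.3% and 13.8% of genes tested did, and those at 4 h and 3 days overlapped it. The log2 fold change at 10 days was 0.51 ± 0.22 (SE, limma adjusted p = 0.224), and it was 0.29 without 10 day library 5. At 4 h it was 0.45 ± 0.22 (adjusted p = 0.328).

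Cck and Pvalb were low in 10 day library 5 in particular. Cck, a peptide of basket-type interneurons and of many cortical pyramidal neurons, had 63.1 FPKM there, against 210 and 251 FPKM in 10 day libraries 1 and 2 and 227 to 271 FPKM in sham right. Its 10 day log2 fold change was -0.74 ± 0.36 (SE, limma adjusted p = 0.273) and -0.12 without that library. At the other 3 times it lay between -0.13 and 0.00 (adjusted p from 0.915 to 1).

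Pvalb, the calcium buffer of fast-spiking interneurons (ENSMUSG00000005716, chromosome 15, 78191114 to 78206400, minus strand), had 84.4, 79.1 and 49.6 FPKM at 4 h, against 113, 114 and 122 FPKM in sham right. The 4 h libraries lay wholly below sham, as did those of 17.2% of genes tested, by -0.74 ± 0.33 on the log2 scale, which was not called (limma adjusted p = 0.280), and the 3 later times overlapped sham. At 10 days it was -0.50, or -0.12 without library 5. Contralateral left 1, 3 and 5 were at 177, 194 and 110 FPKM, 2 of them above every other library. Their log2 difference from sham right was 0.42 ± 0.33 (limma adjusted p = 0.835). Mitochondrially encoded RNA took 39.0%, 33.5% and 30.2% of the summed FPKM in those 3 libraries, and its part in the Pvalb values was not tested.

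Other genes of inhibitory neurons, both shared and of single lineages, gave few calls. Of 23 such genes measured and reported, 0 were called at 4 h, 1 day and 3 days and 1 was higher at 10 days, with medians of 0.02, 0.05, 0.01 and -0.17. The gene called was Maf, a transcription factor of Pvalb and Sst interneurons that macrophages also express, at 5.96 ± 1.43 FPKM at 10 days and 3.09 ± 0.25 FPKM in sham right (log2 fold change 0.75 ± 0.15, limma adjusted p = 0.00259). Of the 14 microglia and macrophage markers above, 12 were called higher at 3 days and 11 at 10 days, and their part in the Maf value was not tested. Gad2, the other GABA-synthesising enzyme, averaged 25.3 ± 2.31 FPKM at 10 days and 28.0 ± 2.05 FPKM in sham right (-0.14 ± 0.17, adjusted p = 0.669). Per FPKM of Gad1 and Gad2 summed, Calb2 stood at 0.0912 ± 0.0337 at 10 days and 0.275 ± 0.0935 in sham right, and Nts at 0.0243 ± 0.0118 at 3 days and 0.110 ± 0.0263 in sham right.

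Penk and Tac1 differed widely between libraries of the same stroke group. Penk, proenkephalin (ENSMUSG00000045573, chromosome 4, 4133531 to 4138819, minus strand), had 24.4, 27.4 and 26.1 FPKM in contralateral left, 40.0, 35.4 and 36.1 FPKM in sham right, 81.3, 22.1 and 61.5 FPKM at 4 h, 20.7, 15.3 and 47.0 FPKM at 1 day, 13.5, 51.5 and 19.2 FPKM at 3 days and 36.0, 27.4 and 40.7 FPKM at 10 days. Libraries 2 and 6 at 4 h, library 4 at 1 day and library 2 at 3 days lay above every sham value, and the other 5 libraries of those times lay below every sham value. No difference was called (limma adjusted p from 0.628 to 0.924 at the 4 times). Its SD within groups was 0.66 on the log2 scale, larger than that of 98.6% of genes tested, whose median was 0.22. Contralateral left lay wholly below sham right, as 8.29% of genes tested did (-0.50 ± 0.48, adjusted p = 0.885).

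Tac1, the precursor of substance P and neurokinin A (ENSMUSG00000061762, chromosome 6, 7554879 to 7565834, plus strand), followed the same libraries. It had 7.95, 7.91 and 4.82 FPKM in contralateral left, 8.18, 6.61 and 9.13 FPKM in sham right, 13.2, 3.56 and 7.36 FPKM at 4 h, 3.55, 3.76 and 5.88 FPKM at 1 day, 2.27, 7.17 and 2.51 FPKM at 3 days and 6.89, 5.62 and 14.4 FPKM at 10 days. All 1 day libraries lay below sham right, as for 8.5% of genes tested, and the 3 other times overlapped it. The log2 fold change was -0.97 ± 0.41 at 3 days (SE, limma adjusted p = 0.225), and -1.40 without 3 day library 2 (adjusted p = 0.0490). The difference of 10 days from 3 days was 1.03 ± 0.41 (limma adjusted p = 0.238), or 0.67 without 10 day library 5.

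Receptor genes of striatal projection neurons were high and low in the same libraries as Penk and Tac1 at 4 h, 1 day and 3 days. Drd2, the dopamine receptor of the indirect pathway, had 6.19, 0.135 and 5.69 FPKM at 4 h, 0.594, 0.311 and 4.08 FPKM at 1 day and 0.263, 3.03 and 0.286 FPKM at 3 days, against 2.59, 2.00 and 2.91 FPKM in sham right. The 4 libraries with high Penk at those times are the 4 with Drd2 over 3 FPKM, and in the other 5 Drd2 was under 0.6 FPKM. Ppp1r1b, also on the striatal list, had 93.7, 52.5 and 62.4 FPKM at 4 h, against 37.5, 26.8 and 29.2 FPKM in sham right. It was thus above every sham value also in 4 h library 3, which was low in Penk and Drd2. In 10 day library 5 Ppp1r1b was the lowest of its group (24.2 FPKM), where Penk, Tac1 and Drd2 were the highest. The summed FPKM of 17 striatal markers ran from 149 to 309 at 4 h, 122 to 207 at 1 day, 104 to 199 at 3 days and 121 to 178 at 10 days, against 148 to 170 in sham right. None of 16 such markers that passed the filter was called at any of the 4 times (limma). At 4 h 1 of the 16 lay below 0, at 1 day 11, at 3 days all 16 and at 10 days 11. Of all genes tested 49.3%, 42.9%, 36.8% and 60.2% lay below 0 at these times. Choroid plexus RNA also differed between libraries, with its carrier protein Ttr under 1 FPKM in library 3 at 4 h, library 3 at 1 day and library 8 at 3 days, all 3 of them low in Penk. The part of striatal content in the Penk and Tac1 values was not tested.

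**Figure D4:**
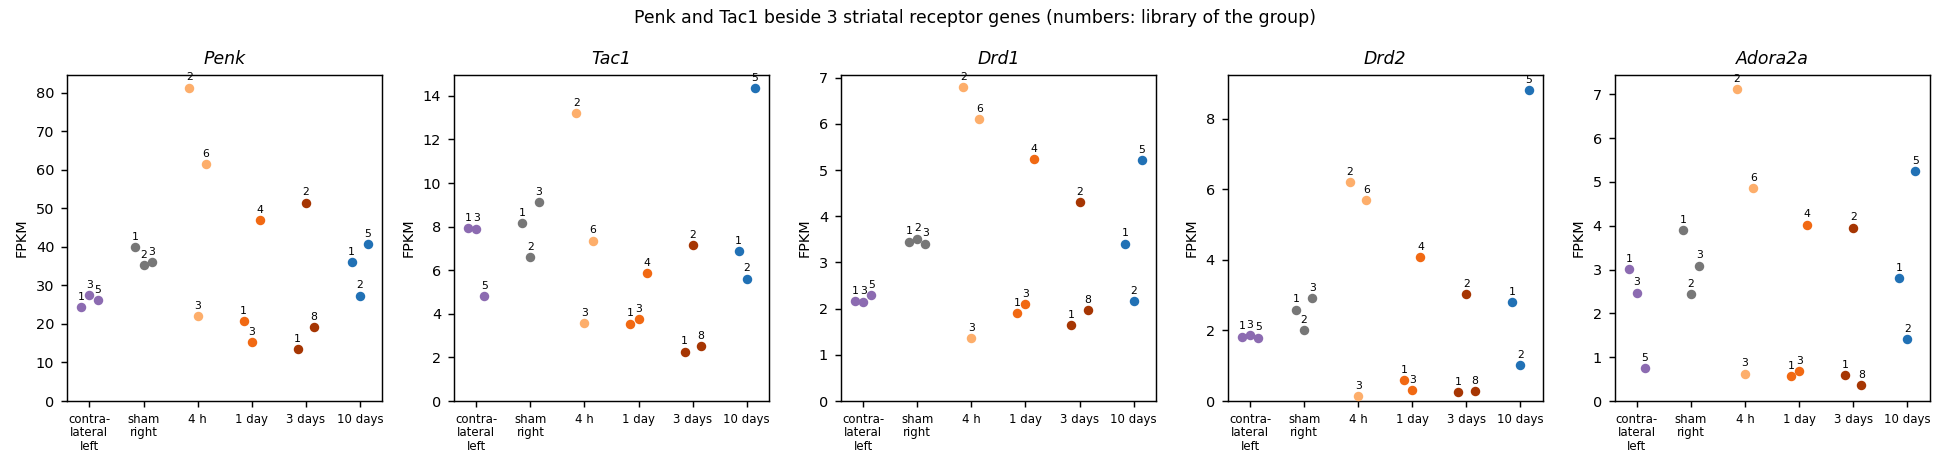
FPKM (vertical axes, from 0) of Penk, Tac1 and the striatal receptor genes Drd1, Drd2 and Adora2a in each of 18 libraries, with the library number beside its point. Libraries 2 and 6 at 4 h, 4 at 1 day and 2 at 3 days are the highest of their group, or the upper pair at 4 h, in all 5 genes.

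The pattern over 18 libraries was compared with that of every gene tested, by the mean absolute difference between standardised log2(FPKM + 1) profiles. The genes nearest to Penk were Drd1 (0.301) and Gpr6, an orphan receptor of indirect pathway neurons (0.351), where the median over all genes was 1.11. Nearest to Tac1 were Adora2a, the adenosine receptor of the striatum (0.335), and Syndig1l (0.352), and its nearest fellow member was Penk (0.493). The genes nearest to the other members were Kcnmb4 and Spout1 for Sst, 9130024F11Rik and Atp6v1h for Vip, Usp39 and Grsf1 for Npy, Ndfip1 and Tmem199 for Cck, Rab27b and Tspan13 for Crh, Unc13c and Gpc5 for Nts, Dpf3 and Patj for Calb2, and Gm9803 and Ndufs8 for Pvalb, at 0.161 to 0.489. These are descriptions of 18 libraries that share their group structure and, through the FPKM scale, their library totals.

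Receptors of the peptides gave 1 call at 1 of the 4 times. Of 15 receptors and binding proteins that passed the filter, Vipr1, a receptor for Vip, rose at 4 h (7.06 ± 1.98 FPKM against 2.91 ± 0.567 FPKM in sham right, log2 fold change 1.03 ± 0.23, limma adjusted p = 0.0270) and none was called at 1, 3 or 10 days. Vip itself was at 16.4 ± 7.40 FPKM at 4 h and 17.1 ± 2.09 FPKM in sham right. The F-test over the 4 times called 4 of the 15, namely Vipr1, the neurotensin receptor Ntsr1, the Npy receptor Npy1r and the somatostatin receptor Sstr1. Ntsr1 had 0.622, 0.590 and 1.22 FPKM at 1 day, against 1.69, 2.19 and 2.98 FPKM at 4 h, and fell in that step by 0.86 on the log2 scale (SE 0.19, adjusted p = 0.0376). Npy1r averaged 4.70 ± 0.594 FPKM at 4 h and 8.70 ± 1.75 FPKM in sham right, a difference of -0.76 ± 0.19 on the log2 scale that was not called (limma adjusted p = 0.0543).

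Other neuropeptide precursors were also mostly uncalled. Of 13 that passed the filter, Adcyap1, the precursor of the neuropeptide PACAP, was the single one called at any one time against sham right, at 3 of the 4 times. The F-test over the 4 times called Adcyap1 (adjusted p = 0.0273) and Pthlh, parathyroid hormone-like hormone (adjusted p = 0.0452). Adcyap1 had 5.07, 6.47 and 3.31 FPKM at 4 h, 4.3, 6.91 and 5.92 FPKM at 3 days and 5.33, 7.84 and 3.98 FPKM at 10 days, against 11.4, 10.6 and 9.86 FPKM in sham right. Its log2 fold changes were -1.0 ± 0.22, -0.81 ± 0.22 and -0.83 ± 0.22 (limma adjusted p = 0.0253, 0.0305 and 0.0262). All 9 of these values lay below all 3 of sham right, as did those at 1 day (-0.68 ± 0.22, adjusted p = 0.239). At 4 h, 1 day, 3 days and 10 days 17.2%, 8.5%, 9.67% and 13.2% of genes tested lay wholly below sham right. Adcyap1 in contralateral left (6.55, 9.18 and 7.09 FPKM) also lay wholly below sham right, as 8.29% of genes tested did. Its log2 difference there was -0.45 ± 0.22 (limma adjusted p = 0.665). None of 20 genes of peptide processing and dense-core granules was called at any of the 4 times by limma or the F-test, with medians of -0.01, -0.07, -0.05 and -0.19.

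Among 20 other neuronal calcium-binding proteins, 1 was lower at 4 h and 1 at 3 days. Calb1, calbindin, a calcium buffer of interneurons and projection neurons that is also on the thalamic list, averaged 19.5 ± 2.12 FPKM at 4 h and 34.7 ± 8.44 FPKM in sham right (-0.78 ± 0.19 on the log2 scale, limma adjusted p = 0.0446). Necab2, a calcium-binding protein found in striatal neurons among others, averaged 6.48 ± 0.904 FPKM at 3 days and 13.9 ± 2.1 FPKM in sham right (-0.99 ± 0.23, adjusted p = 0.0110). The medians of this list were 0.00, -0.09, -0.24 and -0.29 at the 4 times.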

How the data were processed

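The values used are FPKM as deposited by the authors, 1 column for each of 18 libraries, with no further scaling between libraries stated. The submitters' processing notes name build GRCm38 with StringTie 1.3.4d, HISAT2 2.1.0 and Trimmomatic 0.36, and give no annotation, strand handling or filter. The authors' deposited p-values and q-values, whose groups are not stated, entered no test. The copy ends inside a line, with 34921 complete genes of 38022 that its smallest p and q imply. Genes with q over 0.908 were thus not analysed here. Without them, shares of genes called can be too high and adjusted p-values too low. Depth is unknown: over 7788 single-exon genes longer than 300 bases, 38.2% to 44.4% of low values lay within 0.1 of a whole multiple of the commonest, where evenly spread values give 20%.

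The 14016 genes that reached 1 FPKM in at least 3 libraries entered the tests. A model of log2(FPKM + 1) with a mean for each of 6 groups was estimated from 18 libraries by limma (version 3.58.1, in R 4.3.3), with moderation by trend and robust to outliers. Fold changes are on that scale and understate changes of low genes. The 8 comparisons are each time and contralateral left against sham right and each time against the one before, with an F-test over the 4 times. The protocol names 3 animals a group on the right side. Coordinates are from GENCODE M21 (GRCm38). Figures were drawn with matplotlib 3.10.9 (Python 3.11.15).

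The members and the 14 gene lists were chosen with earlier results of these data known. A gene of the inhibitory neuron list is not reported here and was left out of that list's counts. Named genes are all members, up to 3 called genes with the smallest adjusted p per list, direction and comparison, 8 neuronal level genes and the 2 genes nearest to each member in pattern. Drd2, Tcf7l2, Ttr, Npy1r, Sstr1 and per-library values of list genes were chosen after their values were seen. Alternatives were another pseudocount (0.1), no filter, 2 other scalings, fewer libraries, another control and a replicate block.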

Additional observations from a re-analysis of the deposited data

How the results depend on the processing

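Of 1310 values of the members under alternatives, 1179 kept their direction and side of the threshold, 98 uncalled values crossed 0 without a call, 24 lost a call, 9 gained a call and 0 called values turned round. Main counts of members called were 0 at 4 h, 1 at 3 days, 1 at 10 days and 1 in the F-test over the 4 times, and 0 in the other comparisons under every alternative run. Leaving out contralateral left 5 and 10 day 5, or fitting only the compared groups, gave 1 at 4 h (Calb2), 2 at 3 days and 2 in the F-test (Nts and Calb2), and 0 at 10 days. Quantile normalization gave 2 at 3 days. No filter and rescaling without mitochondrial genes gave 0 at 10 days and 0 in the F-test, and contralateral left as the control gave 0 at 10 days. Leaving out 1 library gave 0 to 2 at 3 days (without sham right 3 or 3 day 1 none, without sham right 1 Calb2 and without 3 day 2 Tac1 beside Nts), 0 to 1 at 10 days and 0 to 1 in the F-test. The replicate block gave 0 at 10 days, against 1, and changed no other count of members. Same-numbered libraries of different groups correlated from -0.227 to 0.409 in their deviations from group means, over 0.1 in 9 of 23 pairs. Contralateral left and sham right correlated at 0.219 for number 1 and 0.102 for number 3. Most of the other pairs join different times, and differently numbered libraries were not compared, so this does not settle pairing. The main fit took libraries as unpaired.

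Genes called at 4 h, 1 day, 3 days and 10 days numbered 306, 165, 1032 and 1000, with 106, 62, 709 and 904 under the block. Over all alternatives other than leaving out 1 library they ran to 1802, 419, 1766 and 1208, and leaving out 1 library gave as few as 88, 84, 647 and 737. Contralateral left against sham right gave 4 genes (0 to 2767). The steps gave 172 (13 to 703), 732 (366 to 1256) and 283 (3 to 334), and the F-test 1889 (1135 to 3262). The counts of 1802, 419, 2767 and 3262 came from leaving out contralateral left 5 and 10 day 5. Neither library is in the 4 h or 1 day comparison, but both enter the spread shared by all groups. Rescaling shifted the median gene by 0.10 at 4 h, and quantile normalization by -0.13 at 3 days and 0.14 between 3 and 10 days. Depth is unknown, so what low values such as those of Nts and Crh can resolve is limited by the spread of 3 libraries.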
